A study of Mus musculus with 104 samples.

Results

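The Cdh13 break cluster is the set of junctions that landed between 120.5 and 122.0 Mb of mouse chromosome 8 (mm9), the window that holds Cdh13. A read name entered once for each table, and 1322 of the 2018794 junctions in all 24 tables fell in the window. Of the 531098 junctions more than 5 Mb from the own bait break, called far junctions here, they made up the shares given below. The window was chosen by its counts of junctions, which in its middle 500 kb were higher with aphidicolin in neural progenitors, so that contrast and the differences between the cell types are described without a test.

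The libraries came from HTGTS, genome-wide sequencing of translocations at high throughput. A break made at a fixed bait site joins to breaks elsewhere and the joined DNA is amplified from the bait by linear amplification-mediated PCR. The cells were neural progenitor cells (NPC) differentiated from mouse embryonic stem cells (ESC), and the ESC themselves, each from 2 lines of the strain C57BL/6/129SVE. NPC and ESC alike carried the genotype Xrcc4-/- p53-/-, with the bait on chromosome 7, 12 or 15. They were given aphidicolin (APH) or DMSO, its solvent, at doses and times that the labels leave out. The 104 experiments form 24 pools by cell type, line, bait and treatment, which gives 6 pools in each of 4 conditions. The tables hold DNA junctions and no expression, so the cell types stand as labelled, and the labels do not say that pools came from separate cultures; p-values measure the spread between pools, which may be technical.

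Cdh13 encodes T-cadherin, an atypical member of the cadherin family of adhesion proteins that is held in the membrane by a lipid anchor and lacks the cytoplasmic tail by which classical cadherins bind catenins. In mice it binds adiponectin, and it takes part in axon guidance. Long genes are known to collect recurrent double-strand breaks in neural progenitors when replication is slowed, and APH slows it by inhibiting replicative DNA polymerases. Xrcc4 is a factor of classical end joining, and cells without it join ends by alternative routes that often use short stretches of matching bases (microhomology). p53 is a tumour suppressor that removes cells with unrepaired breaks.

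The gene was placed by sequence. RefSeq lists Cdh13 at 1184913 bases in GRCm38.p6, the third longest of 1043 protein-coding genes on chromosome 8, between Mphosph6 and Hsbp1, with 4 RNA or predicted genes inside it. Promoter stretches of RefSeq that occurred in prey reads at 1 place alone give mm9 anchors. The stretch of Mphosph6, the left neighbour, lay before the window at chr8:120325998-120326052, that of Gm31893, a predicted gene inside Cdh13, lay within it at chr8:121581308-121581338, and that of Klhl36, which is 16 protein-coding genes further along, lay after it at chr8:122385955-122385994. The matching letters, as read in the junctions (Mphosph6 and Gm31893 on the minus strand, Klhl36 on the plus strand), are shown because they tie the window to the gene.
Mphosph6: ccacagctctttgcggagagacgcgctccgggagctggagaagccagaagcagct
Gm31893: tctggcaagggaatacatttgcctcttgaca
Klhl36: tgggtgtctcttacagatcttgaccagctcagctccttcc

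The next sequences show what a member of the cluster is. Each is a junction from NPC under APH, chosen per bait and strand as the one nearest to that strand's median position with an overlap of 2 bases or more. The bait comes first, the bases that fit both bait and prey are in capitals, and the chromosome 8 prey follows. In plus junctions the prey runs on to higher coordinates, and in minus junctions to lower ones.
Bait 7 plus, chr8:121386466-121386466: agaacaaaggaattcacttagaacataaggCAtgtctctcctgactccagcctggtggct
Bait 12 plus, chr8:121389351-121389351: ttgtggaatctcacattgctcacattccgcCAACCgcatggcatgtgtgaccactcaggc
Bait 15 plus, chr8:121383007-121383007: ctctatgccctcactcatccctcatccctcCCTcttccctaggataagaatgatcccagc
Bait 7 minus, chr8:121177800-121177800: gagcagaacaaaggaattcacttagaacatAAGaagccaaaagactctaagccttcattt
Bait 12 minus, chr8:121153368-121153368: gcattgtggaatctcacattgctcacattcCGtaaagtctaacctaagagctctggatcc
Bait 15 minus, chr8:121158841-121158841: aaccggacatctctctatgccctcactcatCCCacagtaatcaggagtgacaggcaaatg

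Pools of the same bait shared junction positions, which bears on every result below. A position here is a base and strand on chromosome 8, without the single-base prey described further on. In NPC with bait 15, the APH pool of line 2 held 188 window positions, of which 147 (78.2%) were also in the APH pool of line 1. The pool labelled NPC line 2 bait 15 DMSO held 157, of which 106 (67.5%) were in the APH pool of line 1 and 13 were in the DMSO pool of line 1. The APH pool of line 2 crossed treatments as well: it held 10 of the 40 window positions of the DMSO pool of line 1, and 26.6% of that pool's far positions. Between pools of different baits, 192 pairs shared 0 window positions.

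The sharing could be followed to single experiments in the pool labelled NPC line 2 bait 15 DMSO. Over all far positions, 77.6% of those in its experiment A were also in experiment A of line 1 under APH, and 74.1% of those in its experiment D were in experiment C of line 1 under APH. Its experiments B and C instead shared 69.3% and 79.2% of their positions with the DMSO experiments of line 1 that carry the same letters. In the window, experiments A and D held 70 and 73 junctions, 0.430% and 0.331% of their far junctions, while experiments B and C held 7 and 10, or 0.0747% and 0.0919%. The experiments of this pool therefore split, and the 2 that shared positions with APH experiments held most of its window junctions. The tables do not show whether these experiments hold the same DNA, nor which of the treatment labels is right, so the values of the NPC line 2 bait 15 pools stand under labels that are in doubt. Shares, bin fold changes, position, strand and joint structure in NPC are therefore also given without these pools.

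**Figure D1:**
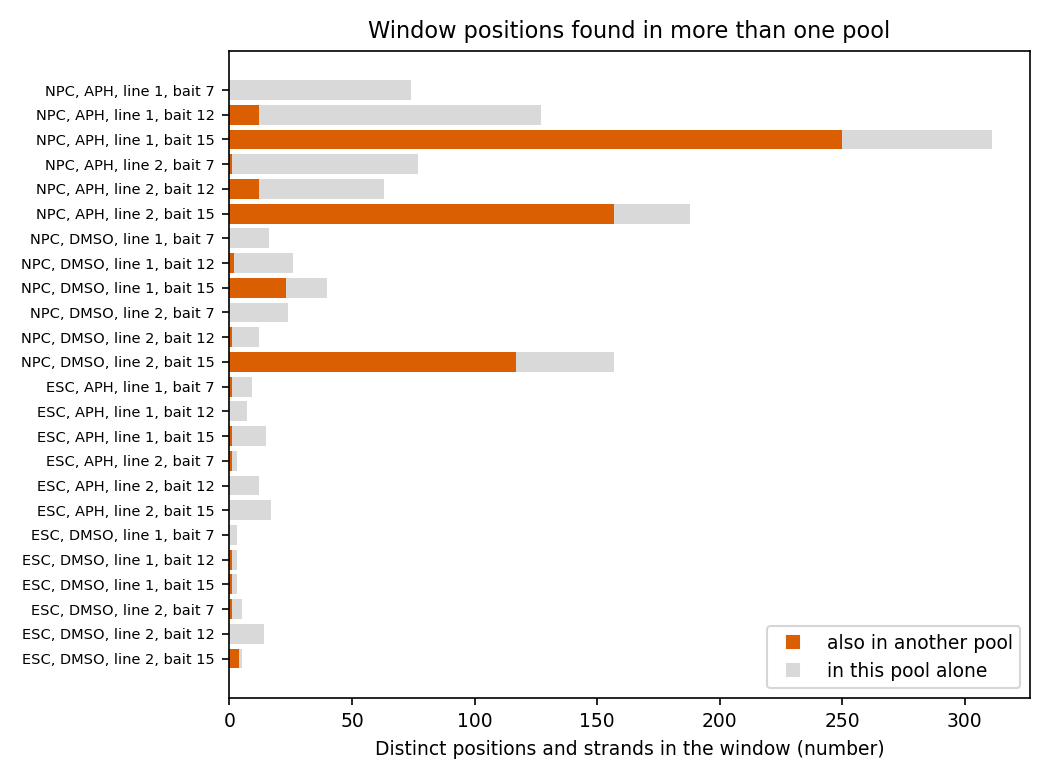
Distinct window positions and strands per pool (bar length, number), with those also found in another pool in orange and those of 1 pool alone in grey. In NPC with bait 15 the orange part covers 250 of 311 and 157 of 188 positions under APH (line 1, line 2), and 23 of 40 and 117 of 157 under DMSO.

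NPC lines 1 and 2 with bait 12 had 12 window positions in common under APH, out of 127 and 63. In ESC, the DMSO pool of line 2 bait 15 had 4 of its 5 positions elsewhere, 3 of them in NPC pools under APH. Of its far positions, 18.4% were in NPC line 1 bait 15 under APH and 17.7% in NPC line 2 bait 15 under APH. ESC line 1 bait 12 under DMSO had 14.3% of its far positions in NPC line 1 bait 12 under DMSO. Some ESC pools of the contrast tested below thus overlap NPC pools. The APH and DMSO pools of each tested ESC pair also shared far positions. Of the APH pool's positions, 4.03%, 0.638% and 7.96% were in its DMSO partner in line 1 (baits 7, 12 and 15). In line 2 the values were 7.16%, 7.25% and 3.02%. In the window, line 2 bait 7 shared 1 position and the other pairs shared 0. With positions of 1 pool alone, the ESC share difference was 0.123 points and did not pass (exact sign-flip p = 0.125, adjusted 0.225).

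Some window reads had a prey part made of 1 base. In 37 of the 1322 junctions, at least 80% of the prey was a single base, G in 35 and C in 2. Their prey parts were 36 to 47 bases long, and all 37 lay within 50 bases, at chr8:121371119-121371168, where no other junction fell. They made up 18 of 107 window junctions in ESC under APH (16.8%) and 9 of 48 in ESC under DMSO (18.8%), against 4 of 875 in NPC under APH and 6 of 292 in NPC under DMSO. Of all far junctions, 4.60% in ESC under APH and 3.37% in ESC under DMSO had such prey, and 0.311% in NPC under APH and 0.353% in NPC under DMSO. Of the 37, 35 had inserted bases between bait and prey. The junction shown, from ESC line 1 under APH, instead has an overlap of 2 bases. With the part aligned to chromosome 8 in capitals, its prey shows the difference from the junctions above.
Bait 15 minus, chr8:121371160-121371160: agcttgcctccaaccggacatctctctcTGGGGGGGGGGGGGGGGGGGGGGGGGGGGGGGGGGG

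In NPC the cluster took a larger share of far junctions with APH than with DMSO. Line 1 under APH had 78 window junctions with bait 7 (0.249% of 31380 far junctions), 130 with bait 12 (0.280% of 46439) and 326 with bait 15 (0.368% of 88587). Line 2 under APH had 78 with bait 7 (0.357% of 21828), 64 with bait 12 (0.392% of 16325) and 199 with bait 15 (0.298% of 66830). Under DMSO, line 1 had 18 with bait 7 (0.124% of 14552), 27 with bait 12 (0.114% of 23781) and 46 with bait 15 (0.127% of 36296). Line 2 under DMSO had 28 with bait 7 (0.132% of 21217), 13 with bait 12 (0.104% of 12526) and 160 in the pool labelled bait 15 (0.273% of 58601).

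The 6 APH pools lay between 0.249% and 0.392%, and 5 of the 6 DMSO pools between 0.104% and 0.132%, so the groups overlap through the pool labelled NPC line 2 bait 15 DMSO alone. The mean share was 0.324 ± 0.0566% under APH and 0.145 ± 0.0633% under DMSO (SD, n = 6 each), a ratio of 2.23, with APH higher in 6 of 6 pairs of the same line and bait. Without NPC line 2 bait 15 it was 0.329 ± 0.0616% under APH and 0.120 ± 0.0113% under DMSO (SD, n = 5 each), a ratio of 2.74. With positions of 1 pool alone, APH was higher in 5 of 6 pairs, by a mean of 0.150 points, against 0.178 points with all positions. No test is given because this contrast chose the window.

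Single experiments spread more widely than pools. Under APH, 19 NPC experiments whose letters match the labels had a median of 0.350% (0.152 to 0.506%), and under DMSO 24 had a median of 0.127% (0 to 0.430%). In ESC, 28 experiments under APH had a median of 0.217% (0 to 0.806%) and 16 under DMSO one of 0.0743% (0 to 0.258%). The NPC maximum under DMSO is experiment A of the pool labelled line 2 bait 15. Some experiments are not separate, because read names listed under 2 letters were credited to the first listed. In NPC line 2 bait 12 under APH, experiments A and B shared 10907 read names, and B has no value of its own. In ESC line 1 bait 7 under APH, experiment C shared 3719 read names with A and 3983 with D.

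Exact 95% Clopper-Pearson intervals of single pools, which cover counting error only because reads carry no molecular identifiers, ran from 0.329 to 0.410% for the APH pool of NPC line 1 bait 15, the largest pool. They were wider in ESC, where a pool held 3 to 37 window junctions. The APH pool of ESC line 1 bait 15, with 37, had an interval of 0.251 to 0.491%. Its 37 junctions lay at 19 distinct positions and strands, so that interval is too narrow if repeats are copies.

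**Figure D2:**
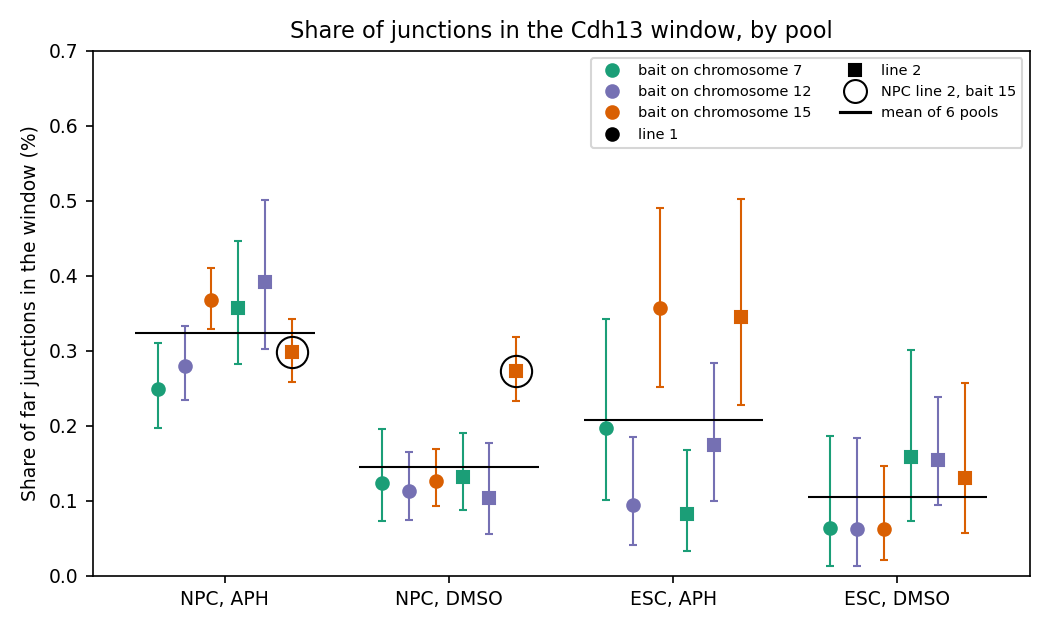
Share of far junctions in the window (%), 1 point per pool with its 95% Clopper-Pearson interval; colour is the bait, shape the line, the bar the mean of 6 pools, and circles mark NPC line 2 bait 15. The 6 NPC pools under APH sit between 0.249% and 0.392%, and the circled DMSO pool, at 0.273%, is the 1 NPC pool under DMSO above 0.132%.

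In ESC the APH effect did not pass the test. Under APH, the ESC pools of line 1 held 12 window junctions with bait 7 (0.196% of 6114 far junctions), 8 with bait 12 (0.0942% of 8492) and 37 with bait 15 (0.356% of 10385). The ESC pools of line 2 under APH held 7 with bait 7 (0.0817% of 8573), 16 with bait 12 (0.175% of 9152) and 27 with bait 15 (0.345% of 7821). Under DMSO, line 1 held 3, 3 and 5 with baits 7, 12 and 15 (0.0637%, 0.0628% and 0.0629%), and line 2 held 9, 20 and 8 (0.159%, 0.154% and 0.130%). The bait 15 pools were the 2 highest under APH, and the groups overlap.

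The mean was 0.208 ± 0.119% under APH and 0.105 ± 0.0474% under DMSO (SD, n = 6 each), with APH higher in 5 of 6 pairs. The mean difference of 0.103 percentage points had p = 0.156 by a two-sided exact sign-flip test over 6 pairs, whose smallest possible p is 0.0312, and 0.281 after adjustment over 9 tests. Line 2 bait 7 was the pair in which APH was lower, with a difference of -0.0771 points. Without the single-base prey the means were 0.183 ± 0.108% under APH and 0.0840 ± 0.0395% under DMSO (exact p = 0.156 again).

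The bins of the window were also tested with those of the whole genome. edgeR's quasi-likelihood test on 882 bins called 20 bins higher in ESC under APH (Benjamini-Hochberg adjusted p below 0.05), a background of 2.27%, and 87 bins had an unadjusted p below 0.05. None of the 3 Cdh13 bins was called. The middle 500 kb bin averaged 1157 ± 794 CPM (counts scaled by library size) under APH and 436 ± 365 CPM under DMSO in ESC (SD, n = 6 each). Its log2 fold change was 1.40 with an SE of 0.51 and did not pass (edgeR adjusted p = 0.144), with APH higher in 5 of 6 pairs. The left bin had a log2 fold change of 0.93 ± 0.62 (edgeR adjusted p = 0.746) and the right bin one of 0.15 ± 0.62 (edgeR adjusted p = 0.959). The median of all bins in ESC was 0.13.

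The ESC call in the middle bin turned on single choices. Without the line 2 bait 7 pools of both cell types the log2 fold change in ESC was 1.98 ± 0.57 and passed (edgeR adjusted p = 0.0346). With 250 kb bins, the left part of the middle bin had 2.73 ± 0.85 (edgeR adjusted p = 0.0319 over 366 bins) and its right part, which holds the single-base prey, had 0.63 ± 0.61 (edgeR adjusted p = 0.810). Without it the whole middle bin had 1.75 ± 0.58 (edgeR adjusted p = 0.0745 over 897 bins). The 250 kb call was adjusted only over bins that passed a filter on low counts, 366 of the 10147 with a junction. With no such filter the middle 500 kb bin had 1.54 ± 0.51 (edgeR adjusted p = 0.348 over 5084 bins). How far the NPC pools, which took part in choosing the window, decided which bins passed the filter was not tested.

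In NPC, described without a test, the same bins had log2 fold changes of 0.53 ± 0.34 on the left, 1.66 ± 0.37 in the middle and 0.69 ± 0.33 on the right (SE). Across the 882 bins, 71 were called higher in NPC under APH, a background of 8.05%, and the middle bin ranked 21 by fold change. It averaged 2140 ± 425 CPM under APH and 707 ± 485 CPM under DMSO (SD, n = 6 each). Without both NPC line 2 bait 15 pools, the log2 fold changes were 0.67, 2.05 and 0.87.

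Under APH the NPC pools exceeded the ESC pools of the same line and bait in 5 of 6 pairs, by a mean of 0.116 percentage points, and by 0.149 without line 2 bait 15 (5 of 5). The exception was line 2 bait 15, at 0.298% in NPC and 0.345% in ESC. Without the single-base prey NPC were higher in 6 of 6 pairs, by 0.141 points. Under DMSO the means were 0.145% in NPC and 0.105% in ESC, higher in NPC in 4 of 6 pairs, a difference of 0.0400 points that was 0.0194 without line 2 bait 15 and 0.0834 with positions of 1 pool alone. The NPC pools took part in the selection of the window, so no test is given. Seen against its chromosome, the window held 4.92% of far junctions on chromosome 8 in NPC under APH and 2.60% in NPC under DMSO, and 3.30% in ESC under APH and 1.78% in ESC under DMSO. With line 2 bait 15 left out, it held 5.14% in NPC under APH and 1.83% in NPC under DMSO.

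The baits differed little in NPC under APH. The means over both lines were 0.303% with bait 7, 0.336% with bait 12 and 0.333% with bait 15, and lines 1 and 2 averaged 0.299% and 0.349% over the 3 baits. In ESC under APH the mean was 0.139% with bait 7, 0.135% with bait 12 and 0.351% with bait 15. These ESC shares include repeated and single-base reads. Distinct positions and strands without the single-base prey numbered 9 and 3 with bait 7 (lines 1 and 2) and 7 and 12 with bait 12. With bait 15 they numbered 15 and 17, against 37 and 27 junctions. Each bait had 2 pools per condition, which no exact test can separate at 0.05.

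Junctions of NPC under APH were concentrated in the middle of the window. The window was chosen for the rise of this middle 500 kb with APH in NPC. Position in NPC, and its contrast between treatments, is therefore described without a test. Of them, 161 lay in the left 500 kb, 507 in the middle and 207 in the right, so the middle held 57.9%, and 51.3 to 62.3% in single pools. Under DMSO the counts in NPC were 75, 134 and 83, and the middle held 45.9%, with 23.1 to 55.6% in single pools. The pool labelled line 2 bait 15 supplied 87 of those 134 middle junctions. Without line 2 bait 15 the middle held 394 of 676 junctions under APH (58.3%) and 47 of 132 under DMSO (35.6%), where the left held 43 and the right 42. The distance between the quartiles was 396 kb under APH and 549 kb under DMSO in NPC (392 kb and 706 kb without line 2 bait 15), and the median position was 121.30 Mb under both treatments. The fullest 100 kb in NPC under APH ran from 121.3 to 121.4 Mb with 138 junctions, and the first 100 kb of the window had 14 and the last 16.

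The edges of the window were lower than its middle, which is also description only, because the middle led to the choice of the window. In NPC under APH the mean share was 0.0621% in the first bin inside and 0.0216% in the bin before it, and 0.0741% in the last bin inside and 0.0322% in the bin after it. Under DMSO the last bin inside had 0.0443% and the bin after it 0.0565%. The middle bin had 0.188 ± 0.0377% under APH and 0.0622 ± 0.0453% under DMSO (SD, n = 6 each).

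Within the cluster no single site dominated once the single-base prey was left out. The 1285 other junctions fell in 637 of the window's 1500 kilobases, and the fullest kilobase held 9 of them (0.7004%). Counted per pool, 843 of 875 junctions in NPC under APH (96.3%) were distinct in position and strand, as were 281 of 292 in NPC under DMSO (96.2%), 75 of 107 in ESC under APH (70.1%) and 41 of 48 in ESC under DMSO (85.4%).

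In ESC the middle 500 kb held 64 of 107 junctions under APH (59.8%) and 20 of 48 under DMSO (41.7%). Without the single-base prey it held 46 of 89 under APH (51.7%) and 11 of 39 under DMSO (28.2%). The median position in ESC was 121.25 Mb under APH and 121.37 Mb under DMSO, and 121.16 and 121.30 Mb without that prey.

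**Figure D3:**
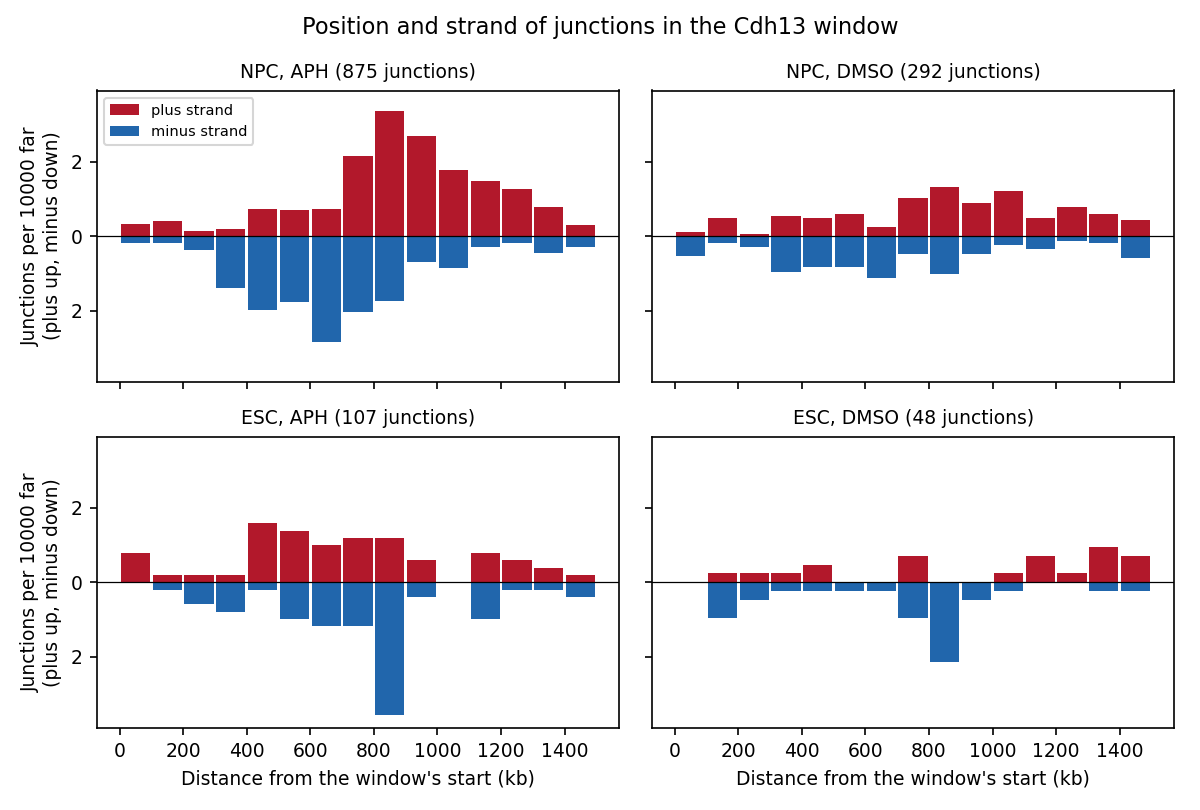
Junctions scaled to the far junctions of the condition, in 100 kb bins against distance from the window's start (kb), plus strand up and minus strand down, for the 4 conditions. In NPC under APH the minus bars are tallest left of the plus bars (medians 121.16 and 121.39 Mb); the tall minus bar in both ESC panels is the bin with the single-base prey.

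Both strands were used about equally, but at different places. In NPC under APH 461 junctions were plus and 414 minus (52.7% plus), and in NPC under DMSO 154 were plus and 138 minus (52.7%). Per pool the plus share under APH averaged 52.8 ± 7.002% in the window and 49.5 ± 0.561% in other interchromosomal junctions (SD, n = 6; exact sign-flip p = 0.312, adjusted 0.312). Under DMSO it averaged 52.5 ± 7.83% in the window and 49.0 ± 1.92% in the others (SD, n = 6; exact p = 0.312, adjusted 0.312). Without line 2 bait 15 the differences were 3.603 points under APH and 3.89 points under DMSO (n = 5).

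In NPC under APH the plus share was higher further along the window. It was 30.4% in the left 500 kb (95% exact interval 23.4 to 38.2%), 51.5% in the middle (47.0 to 55.9%) and 72.9% on the right (66.4 to 78.9%). The intervals take junctions of all pools together, so they cover counting error only and leave out the spread between pools. Positions shared by the bait 15 pools count more than once in them. Without line 2 bait 15 the plus share was 26.8%, 52.5% and 75.5% from left to right under APH. In NPC under DMSO it was 37.3%, 50.7% and 69.9%, and 48.8%, 46.8% and 64.3% without that pool, so the order of left and middle under DMSO rests on it. In ESC it was 62.5%, 42.2% and 52.6% under APH and 38.5%, 15.0% and 12 of 15 junctions under DMSO, on 13 to 64 junctions each, the middle holding the single-base prey. Under APH in NPC the joined DNA left of the middle mostly ran on to lower coordinates, and right of it to higher ones, away from the centre in both cases.

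Plus junctions lay further along the chromosome than minus junctions in every NPC pool under APH. Line 1 had a plus median minus a minus median of 316 kb with bait 7, 169 kb with bait 12 and 263 kb with bait 15, and line 2 had 289 kb with bait 7, 164 kb with bait 12 and 232 kb with bait 15. The mean was 239 ± 62.7 kb (SD, n = 6), with an exact two-sided sign-flip p of 0.0312, the smallest that 6 pools allow, and 0.0938 after adjustment over 9 tests, so it did not pass. Without line 2 bait 15 it was 240 kb in 5 of 5 pools (exact p = 0.0625, the smallest for 5), and with positions of 1 pool alone it was 245 kb in 6 of 6.

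Under DMSO 4 NPC pools had at least 10 junctions on each strand. The offset was -77.3 kb in line 1 bait 12, 260 kb in line 1 bait 15, 142 kb in line 2 bait 7 and 283 kb in the pool labelled line 2 bait 15. The mean of 152 ± 165 kb had an exact p of 0.250 (n = 4), adjusted 0.312. Without the pool labelled line 2 bait 15 it was 108 kb in 2 of 3 pools, and without line 1 bait 12 it was 228 kb in 3 of 3. In ESC the pooled plus and minus medians without single-base prey were 121.16 and 121.18 Mb under APH (51 plus, 38 minus) and 121.61 and 121.18 Mb under DMSO (20 plus, 19 minus), too few per pool for a test.

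The order of the strands was common among dense windows. Of 31 windows of 1.5 Mb with at least 10 junctions on each strand in all 6 NPC pools under APH, Cdh13 among them, 19 (61.3%) had plus after minus in 6 of 6 pools and 0 had the reverse in 6 of 6. Their median offset was 166 kb, and 3 windows exceeded the offset of Cdh13.

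**Figure D4:**
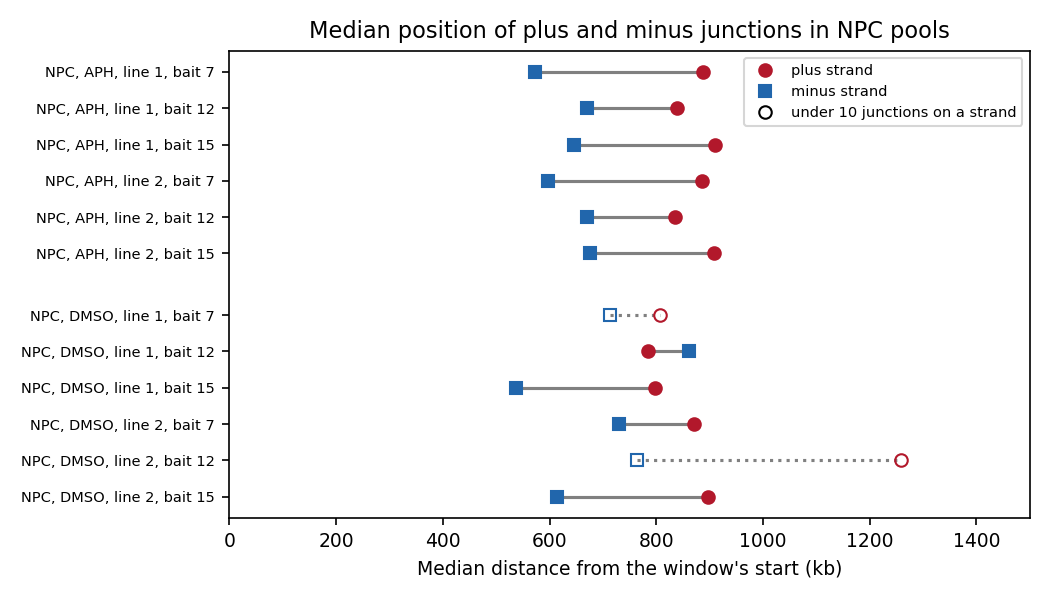
Median distance of plus (red) and minus (blue) junctions from the window's start (kb) in each NPC pool, APH above DMSO; open symbols mark pools with under 10 junctions on a strand. In 6 of 6 APH pools plus lies right of minus, by 164 to 316 kb, while in DMSO line 1 bait 12 the order is the other way round.

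Most joints in the cluster used a short overlap. In NPC under APH 137 of 875 joints had inserted bases (15.7%), 43 were blunt (4.91%), 89 had an overlap of 1 base, 216 of 2 bases, 159 of 3, 117 of 4 and 51 of 5. An overlap of 2 bases was the commonest, at 24.7%. With bait 15, whose junctions shown above share CCT and CCC, the commonest letters were CC (35 of 407 overlaps), C (33) and TC (29).

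Compared with other interchromosomal junctions of the same pools, window joints had an overlap somewhat more often. The share averaged 80.8 ± 3.93% in the window and 75.7 ± 0.650% elsewhere in NPC under APH (SD, n = 6), higher in 6 of 6 pools by 0.897 to 12.7 points (exact sign-flip p = 0.0312, adjusted 0.0938). Blunt joints averaged 5.14 ± 1.47% in the window and 6.94 ± 0.848% elsewhere, lower in 6 of 6 pools (exact p = 0.0312, adjusted 0.0938). Inserted bases averaged 14.01 ± 3.61% in the window and 17.4 ± 0.681% elsewhere, lower in 5 of 6 (exact p = 0.0625, adjusted 0.141). None passed after adjustment over the 9 tests. Without line 2 bait 15 the differences were 6.04 points for overlap, -2.15 for blunt joints and -3.90 for insertions (n = 5), and with positions of 1 pool alone they were 8.09, -2.69 and -5.39 points (n = 6). Against the rest of chromosome 8 they were 4.56, -2.04 and -2.53 points (n = 6). In that comparison overlap was higher in the window in 5 of 6 pools, and blunt joints and insertions were each higher in 2 of 6. None passed there (exact sign-flip adjusted p = 0.375 each).

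The differences were uneven among baits. Overlap was most frequent with bait 12, at 82.3% in the window of line 1, and at 87.5% in the window and 74.8% elsewhere in line 2. With bait 15 it was 77.6% in the window and 75.7% elsewhere in line 1, and 77.4% in the window and 76.5% elsewhere in line 2. The mean overlap, over joints that had one, was 3.16 ± 0.0895 bases in the window and 3.23 ± 0.0433 bases elsewhere (SD, n = 6; exact p = 0.250, adjusted 0.312).

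Bait ends could be compared with bait 7 alone, in NPC under APH. There the median loss from the commonest bait end was 15 bases in the window and 17 bases in other interchromosomal junctions. With baits 12 and 15 the position measured was the start of the bait alignment, which hardly varied. The commonest start was found in 97.4% of window junctions and 99.0% of the others with bait 12. With bait 15 it was found in 98.5% and 97.0%. The bait parts shown above end at different bases within each bait, so this start does not give their loss.

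**Figure D5:**
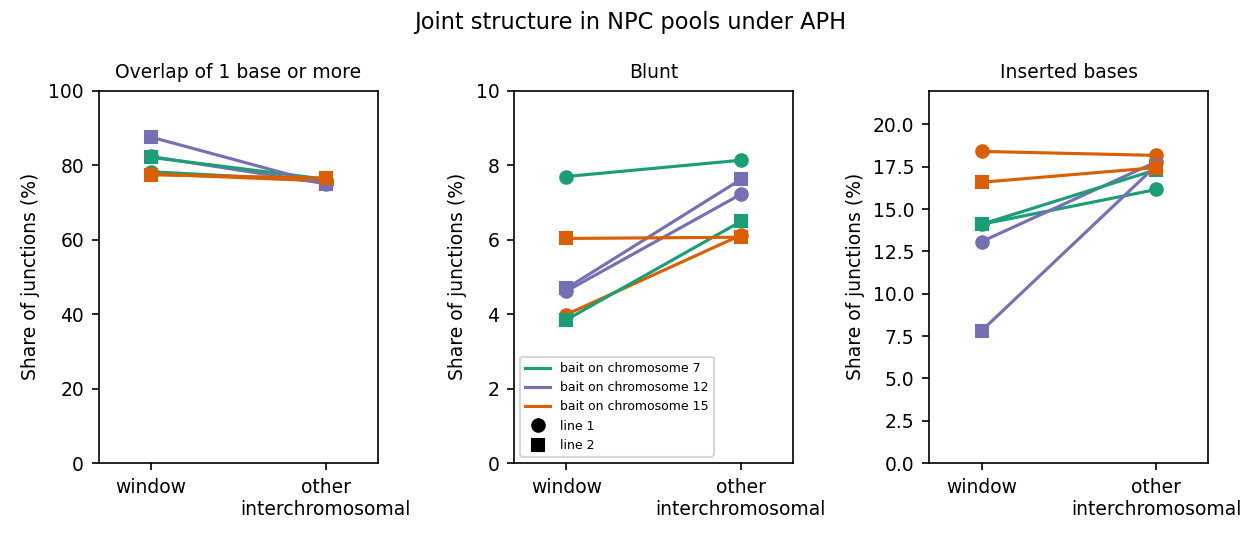
Share of joints (%) with an overlap of 1 base or more, with blunt ends or with inserted bases, in the window and in other interchromosomal junctions, 1 line per NPC pool under APH. Overlap is higher in the window in 6 of 6 pools, blunt joints are lower in 6 of 6 and insertions in 5 of 6.

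The 500 kb bins whose log2 CPM followed the window most closely over the 24 pools, among 394 bins off chromosomes 7, 8, 12 and 15, lay on chromosome 6 at 77 to 77.5 Mb (Pearson r = 0.861), chromosome 19 at 31 to 31.5 Mb (0.829), chromosome 10 at 31.5 to 32 Mb (0.810), chromosome 2 at 41.5 to 42 Mb (0.789) and chromosome 16 at 6 to 6.5 Mb (0.784). These r values describe pools that share depth, bait and, in NPC with bait 15, junction positions, and the median over the 394 bins was 0.172. The bin on chromosome 6 averaged 2029 CPM in NPC under APH and 499 CPM in NPC under DMSO, and 223 CPM in ESC under APH and 126 CPM in ESC under DMSO. Against it, the middle Cdh13 bin was close in NPC but stood at 1157 CPM in ESC under APH and 436 CPM in ESC under DMSO. These ESC values include the single-base prey, which all lay in that bin. Its ESC junctions were 64 under APH and 46 without that prey, and 20 and 11 under DMSO. Among the bins named, the one on chromosome 19 was highest in ESC, at 487 CPM under APH and 201 CPM under DMSO.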

How the data were processed

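Each deposited table lists 1 junction read per row with prey position, strand and query coordinates, which per the file headers gives counts of junctions, not normalized. The submitters' processing notes name Bowtie2 and mm9; the sources used here give no junction caller. Pools held 32896 to 211923 junctions. Experiment letters matched the labels in 21 tables; the other 3 were used as pools only. The read name was counted once per table, junctions within 5 Mb of the own bait break were set aside, and 500 kb bins were tested with edgeR 4.0.16 in R 4.3.3 (filterByExpr with a minimum count of 5, TMM, 12 blocks of cell type, line and bait, an APH term per cell type, all 24 pools, Benjamini-Hochberg over 882 bins), tried on simulated counts. CPM use TMM-scaled library sizes. The labels put an APH and a DMSO pool on every cell line and bait, and these pairs deviated together (r of 0.372 to 0.485 over 6 pairs in ESC and 0.543 to 0.770 in NPC), so they were paired. Shares, strand and joint structure were compared per pool by exact sign-flip tests, two-sided, with Benjamini-Hochberg adjustment over 9 tests (scipy 1.17.1). An overlap is the bases claimed by both bait and prey alignments, and a gap between them is an insertion; both depend on the aligner. The regions named are the 5 bins most like the window by correlation. Members and lists were chosen with earlier results of these data known; the single-base and shared-position alternatives, and the values without NPC line 2 bait 15 pools, were chosen after seeing the data. No mm9 annotation was used, so other cadherin genes were not analysed here. Alternatives were bin size, filter, library size, DESeq2 1.42.0, no replicate block, denominators, distinct positions, and each pair or line left out. In the edgeR fits a pair or line was left out of both cell types. Strand and joint structure were also compared with the rest of chromosome 8.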

Additional observations from a re-analysis of the deposited data

Results flagged for a closer look

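The window share of the pool labelled NPC line 2 bait 15 DMSO, 0.273% of far junctions, stood apart from the other 5 NPC pools under DMSO (0.104 to 0.132%). Its gap to the next pool was 0.833 of the range of the group. It is the 1 pool flagged among 17 groups of values looked at, where chance flags about 1 in 20. Of its 157 window positions, 106 were also in the APH pool of NPC line 1 bait 15; the tables do not show whether its treatment label holds for all of its experiments, and what part this sharing has in its share was not tested.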

How the results depend on the processing

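The middle bin in ESC had a log2 fold change of 1.40 and was not called. It was called without the line 2 bait 7 pools of both cell types (1.98), and without both those pools and prey of one base (2.38). With 250 kb bins its left part was called (2.73, and 2.66 without prey of one base) among bins that passed the count filter. Its right part was not called (0.63). Leaving out each replicate pair in turn, in both cell types, gave 1.16 to 1.98. Without the replicate block it was 1.40 (edgeR adjusted p = 0.752), and paired or not, no share result changed its call; over the other alternatives the adjusted p ran from 0.0691 to 0.934. The number of ESC bins called, 20, was 10 with 1 Mb bins, 11 with 1.5 Mb windows, 13 with no filter, 11 with DESeq2, 3 with no replicate block, 11 with each position once, 3 without line 1, 8 without line 2, and 7 to 19 leaving out each pair, the highest also without prey of one base. The NPC difference of 0.178 points was 0.0727 with all junctions as denominator. The difference in mean overlap length, -0.0691 bases, turned to 0.0640 with positions of 1 pool alone (not called either way). The causes were not tested. The strand offset in NPC under DMSO had too few pools left for a value with positions of 1 pool alone. ESC pools with 3 to 37 window junctions limit what could be detected there.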
